A study of Mus musculus with 16 samples.

Results

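Rab GTPases are small proteins that mark the membranes of a cell and steer vesicles between them. The family was taken as every protein-coding mouse gene whose symbol is Rab followed by a number and, where present, a letter, which gave 59 of the 53850 genes in the table. The rule itself uses no measured value, but it was set with earlier results of these data known. The libraries came from microglia, the resident macrophages of the brain, sorted by fluorescence-activated cell sorting from the brain cortex of adult C57BL/6J mice. The mice had eaten chow with PLX3397, an inhibitor of the receptor for colony-stimulating factor 1 (Csf1r) on which microglia depend, or control chow for 1 week. The study has 4 groups of 4 libraries: male PLX3397, male control, female PLX3397 and female control. All of them carry the same C57BL/6J genotype, with no transgene named, and their ages in days, the sorting gate and whether each library came from its own animal are not given in the sources used here. The p-values therefore measure the spread between these samples, which may be technical. Because the samples are bulk RNA, fewer cells of a type and less RNA per cell cannot be told apart.

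A Rab protein is active on a membrane while it holds GTP. A guanine nucleotide exchange factor (GEF) loads it with GTP, a GTPase-activating protein (GAP) makes it hydrolyse that GTP, and a GDP dissociation inhibitor lifts the spent protein, with its lipid tail, off the membrane for another round. In the GTP state it binds effectors, which are the tethers, motors and adaptors that move and dock the vesicle. Microglia use Rab proteins to take up debris, to mature phagosomes into lysosomes, to return receptors to the cell surface and to secrete.

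All values are normalised counts, which are not corrected for gene length, unless a value per kb of exon is named. Of the 59 Rab genes, 53 reached a normalised count of at least 10 in at least 4 libraries and were tested. Library totals of the normalised counts ran from 32641500 to 44162200. If the commonest step between low values stands for a single read, the reads behind a library were about 22211200 to 78364200. Some values lay below that step, so these read numbers are rough estimates. The 59 Rab genes together took 0.317% to 0.335% of the counts in male PLX3397 libraries and 0.346% to 0.363% in male control libraries. Their share was 0.336% to 0.362% in female PLX3397 libraries and 0.349% to 0.381% in female controls.

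The 8 microglial markers were abundant in every library, with sums of 978287 to 1385850 in male PLX3397, 2143750 to 2317660 in male control, 1567400 to 1781420 in female PLX3397 and 2034630 to 2488760 in female control. All 8 were lower on PLX3397 in males and 6 of 8 in females (limma, Benjamini-Hochberg adjusted p under 0.05). Of 10 neutrophil markers, 8 were higher on PLX3397 in males and 5 in females, with sums of 10144 to 71359 in male PLX3397, 496 to 3389 in male control, 980.3 to 3277 in female PLX3397 and 203 to 271 in female control. The neutrophil marker Ly6g was at 0 in every control library, and S100a8, S100a9, Retnlg, Ltf and Mmp8 also in every female control. Of 8 markers of border-associated macrophages, 6 were lower on PLX3397 in males, where Lyve1 and Cd209f were at 0, and 4 in females, with sums of 708 to 1137 in male PLX3397, 2047 to 3185 in male control, 1023 to 1492 in female PLX3397 and 1686 to 3758 in female control. The largest neutrophil sum belonged to male PLX3397 replicate 3. Male control replicate 4 had an Xist value of 516, against 14.7 to 31.4 in the other 7 male libraries. Counts of Rab genes that passed the test are therefore also given without these 2 libraries, called the 2 set-aside libraries below. The part of these other cell types in the results was not tested.

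The most abundant tested Rab genes per kb of exon were much the same in all 4 groups. Rab24, an atypical Rab with weak GTPase activity that acts in the clearance of autophagosomes, ranked first in each group, at 5876 ± 548 per kb in male PLX3397, 7399 ± 353 in male control, 5029 ± 513 in female PLX3397 and 6957 ± 736 in female control (SD, n = 4 each). Rab14, which moves cargo between the Golgi and endosomes and acts on maturing phagosomes, ranked second in each, at 3586 ± 150.3 per kb in male PLX3397, 4865 ± 238 in male control, 4813 ± 401 in female PLX3397 and 4761 ± 908 in female control. Rab24 and Rab14 did not overlap in male PLX3397, male control or female control libraries, but they did in female PLX3397 libraries.

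Ranks 3 to 7 held the same 5 genes in every group, in slightly different order: Rab7, the Rab of late endosomes and lysosomes, Rab2a and the pair Rab1a and Rab1b, which serve traffic between the endoplasmic reticulum (ER) and the Golgi, and Rab4b, which recycles cargo from early endosomes. Neighbours in the order could seldom be told apart. Along the order of all 59 genes the libraries of a gene and of the next one down did not overlap at 2 steps in male PLX3397, 7 in male control, 4 in female PLX3397 and 2 in female control. The scarcest tested genes included Rab3b and Rab3c, known from neurons, at 2.35 ± 2.51 and 5.64 ± 7.15 per kb in male PLX3397 and 0.0674 ± 0.135 and 6.12 ± 5.86 in male control.

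**Figure D1:**
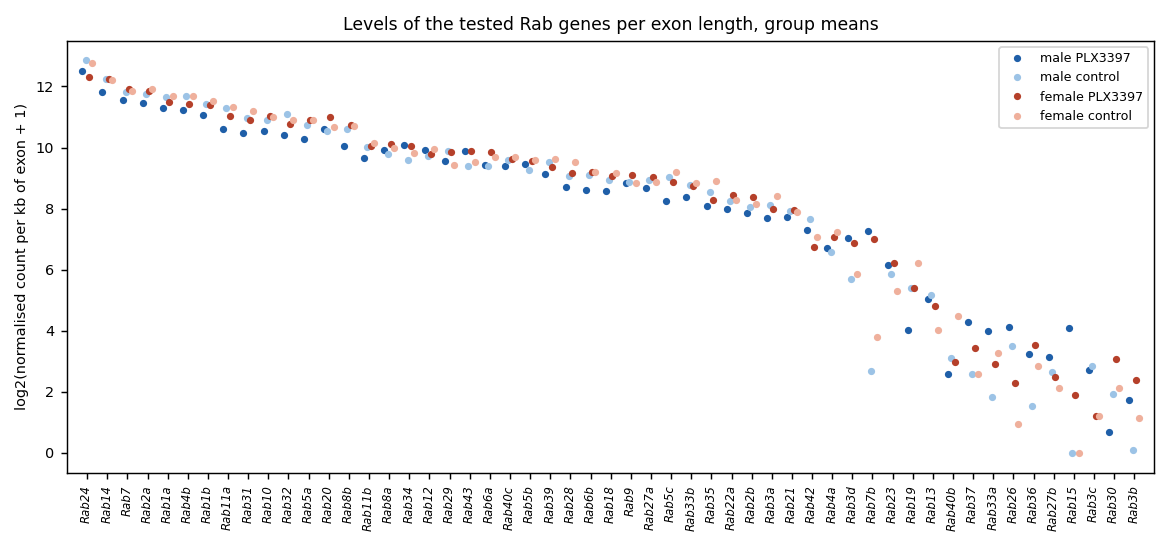
Level of each of the 53 tested Rab genes as log2(normalised count per kb of exon + 1). Points are means of 4 libraries for each group. Genes run from the most to the least abundant, with Rab24 first and Rab14 second in every group, and the 4 groups lie close together except among the scarce genes and at Rab7b.

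In males, 12 of the 53 tested Rab genes differed between PLX3397 and control chow (limma, Benjamini-Hochberg adjusted p under 0.05 over all 19594 genes tested). Rab7b, Rab43 and Rab3d were higher, and Rab4b, Rab5a, Rab5c, Rab8b, Rab11a, Rab14, Rab24, Rab31 and Rab32 were lower. This was 22.6% of the tested Rab genes, beside 11.7% of all genes, with 3 Rab genes higher (5.66%, beside 4.16% of all genes) and 9 lower (17.0%, beside 7.52%). Abundant genes of any kind passed more often: among genes with a mean of at least 1000, 10 of 32 Rab genes passed (31.25%, beside 23.2% of all such genes), with 1 higher (3.12%, beside 5.74%) and 9 lower (28.1%, beside 17.4%). The groups did not overlap for 18 of the 53 (34.0%), beside 17.6% of all genes.

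The median log2 fold change of the 53 genes in males was -0.29, beside 0.02 for all genes. Among genes with a mean of at least 1000 the median was -0.35 for the 32 Rab genes, beside -0.13 for all such genes. The median of the 53 stayed below 0, at -0.13, when libraries were scaled to equal totals, a scaling that moved the median of all genes up by 0.16. The split of calls depended on this scaling: 4 Rab genes were higher and 7 lower under upper-quartile scaling or quantile normalisation. With equal totals 5 were higher (Rab3d, Rab5b, Rab7b, Rab34 and Rab43) and 3 lower (Rab8b, Rab11a and Rab32). Without the 2 set-aside libraries, 2 Rab genes were higher (Rab7b and Rab43) and 4 lower (Rab4b, Rab5a, Rab8b and Rab11a).

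In females 2 of the 53 passed the same test, Rab43 (higher) and Rab24 (lower), which was 3.77% beside 5.34% of all genes, with 1.89% of the Rab genes higher and 1.89% lower beside 2.67% of all genes in each direction. Among genes with a mean of at least 1000 the 2 were 6.25% of 32, beside 10.2% of all such genes, of which 4.85% were higher and 5.3% lower. The groups did not overlap for 7 Rab genes (13.2%), beside 10.4% of all genes, and the median log2 fold change was 0.01, beside 0.00 for all genes; with upper-quartile scaling that median was -0.02. Rab43 and Rab24 passed in both sexes and in the same direction. The male and female comparisons share no library, and over the 53 genes their log2 fold changes had the same sign in 34 (Pearson's r = 0.54, Spearman's rho = 0.48, as a description across genes, which are not independent). These figures were not computed for all genes, so they cannot be read as particular to Rab genes. Without the 2 set-aside libraries, Rab24 was the 1 Rab gene that passed in females.

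**Figure D2:**
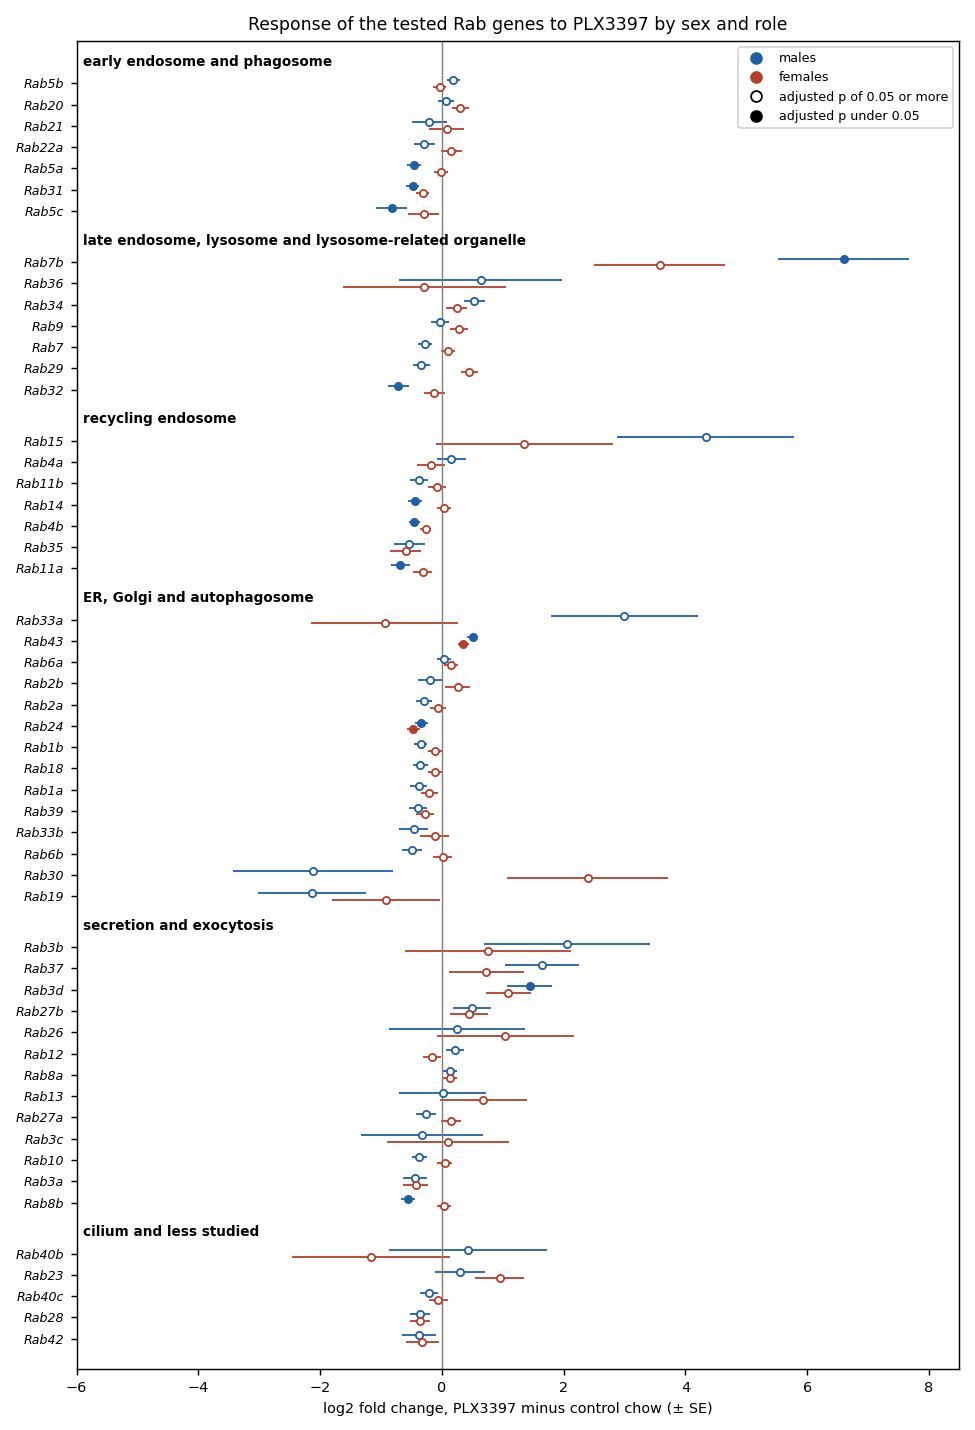
Log2 fold change (PLX3397 minus control chow, ± SE) of the 53 tested Rab genes in males (blue) and females (red), grouped by the compartment each gene is best known for. Filled points passed an adjusted p of 0.05: 12 in males, 9 of them left of 0, and 2 in females. The widest bars belong to scarce genes.

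Promoter sequence was read for the 48 Rab genes that have a RefSeq window, from 250 bases before to 50 after the start of the gene (build GRCm38.p6). Those of Rab43 and Rab24, which passed in both sexes, and of Rab5a and Rab8b, which had the smallest p between the sexes on PLX3397, are shown 5′ to 3′ on the strand of the gene. Capitals mark the E-box CACGTG, a core letter run of the sites bound by TFEB, a regulator of lysosome and autophagy genes. The windows are chr6:87812115-87812414 (minus strand, the most upstream of 4 windows of Rab43), chr13:55321931-55322230 (minus strand, Rab24), chr17:53478984-53479283 (plus strand, Rab5a) and chr9:66919656-66919955 (minus strand, Rab8b).
Rab43: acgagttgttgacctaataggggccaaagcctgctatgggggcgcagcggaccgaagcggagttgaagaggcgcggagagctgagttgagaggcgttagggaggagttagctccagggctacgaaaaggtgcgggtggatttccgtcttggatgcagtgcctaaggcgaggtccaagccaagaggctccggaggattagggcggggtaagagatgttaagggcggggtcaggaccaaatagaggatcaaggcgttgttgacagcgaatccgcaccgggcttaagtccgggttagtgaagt
Rab24: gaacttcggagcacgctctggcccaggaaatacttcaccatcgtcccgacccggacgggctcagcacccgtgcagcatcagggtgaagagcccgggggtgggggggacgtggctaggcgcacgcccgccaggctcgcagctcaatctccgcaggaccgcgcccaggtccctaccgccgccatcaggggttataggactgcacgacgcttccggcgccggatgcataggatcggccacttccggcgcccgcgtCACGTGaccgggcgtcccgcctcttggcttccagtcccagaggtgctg
Rab5a: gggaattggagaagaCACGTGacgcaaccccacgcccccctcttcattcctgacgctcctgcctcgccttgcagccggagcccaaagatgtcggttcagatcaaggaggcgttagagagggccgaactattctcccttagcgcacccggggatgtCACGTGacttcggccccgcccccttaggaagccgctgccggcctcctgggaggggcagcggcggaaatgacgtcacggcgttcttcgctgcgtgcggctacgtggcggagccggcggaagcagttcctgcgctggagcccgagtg
Rab8b: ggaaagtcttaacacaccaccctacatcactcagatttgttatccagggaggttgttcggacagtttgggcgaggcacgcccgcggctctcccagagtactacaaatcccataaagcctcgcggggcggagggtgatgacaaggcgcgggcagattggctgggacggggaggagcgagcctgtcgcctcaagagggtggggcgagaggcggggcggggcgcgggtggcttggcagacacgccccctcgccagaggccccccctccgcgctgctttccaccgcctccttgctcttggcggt
Counted from 0 at the start of the gene, the Rab24 window held 1 E-box, beginning at position 2, and the Rab5a window held 2, beginning at -235 and -95. Neither the Rab43 window nor the Rab8b window held these letters. Each Rab gene was read at its most upstream window only, while the shares for all genes count every window of every gene, so the units differ. Over both strands, 5 of the 48 windows held an E-box (Rab5a, Rab20, Rab21, Rab23 and Rab24), 10.4% beside 7.15% of 32851 windows of all genes. The AP-1 letters TGANTCA stood in 2 (Rab34 and Rab39b), 4.17% beside 7.81%, and the PU.1 letters GAGGAAGT in 2 (Rab2b and Rab32), 4.17% beside 3.20%. The E-box is its own reverse complement, and the letters of the 3 motifs differ enough that none contains another. A match is a description of the letters and not of binding.

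Among Rab genes of the early endosome and phagosome, 3 of 7 tested were lower on PLX3397 in males, beside 7.52% of all genes and 17.4% of those with a mean of at least 1000, and none passed in females. Rab5a, which drives fusion of early endosomes and young phagosomes, had 3160.1, 2504, 3081 and 2908 in male PLX3397 libraries, against 4215, 4222, 4047 and 3539 in male controls. In female libraries it had 4355, 3870.5, 4365 and 5405 on PLX3397, against 3974, 4417, 5291 and 4441 on control chow. The male groups did not overlap, all 4 PLX3397 libraries being lower, and the female groups lay across each other. Rab5a thus fell by 0.46 ± 0.12 (log2, SE) in males (limma adjusted p = 0.0186), and the change in females was -0.01 (adjusted p = 0.976). The male call was lost without male PLX3397 replicate 2 (adjusted p = 0.0654), male control replicate 1 (0.0561) or replicate 2 (0.0575), and with equal library totals (0.0979).

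Rab31, which carries cargo between the trans-Golgi network and endosomes, had 5632, 4849, 5392 and 6012 in male PLX3397 libraries, against 8654, 7471, 6621 and 7791 in male controls. Female libraries had 5745, 7503, 7524 and 8057 on PLX3397, against 8779, 8769, 8798 and 9231 on control chow. Every PLX3397 library lay below every control library of its own sex. In males Rab31 fell by 0.48 ± 0.11 (adjusted p = 0.00813, and 0.0534 with equal library totals, 0.0527 without the 2 set-aside libraries). In females the value was -0.31 ± 0.11, which did not pass (adjusted p = 0.124).

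Rab5c, a paralog of Rab5a, had 949, 472, 565 and 664 in male PLX3397 libraries and 1296, 997, 983 and 1318 in male controls. In females it had 1023, 1377, 1074 and 664 on PLX3397 and 990.4, 935, 1408 and 1758 on control chow. Male groups came close but did not overlap (949 against 983), and female groups overlapped. Rab5c fell by 0.83 ± 0.26 in males, just past the threshold (adjusted p = 0.0462), and this call was lost when any of 11 single libraries was left out: every male library except PLX3397 replicate 1, and replicates 1 and 3 of each female group, with adjusted p of 0.0508 to 0.145. It was also lost with no filter on low values (0.0749), with upper-quartile scaling (0.0573), with equal library totals (0.088) and without the 2 set-aside libraries (0.218).

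Rab5b, the third Rab5 gene, had 2324, 2019, 2157 and 2412 in male PLX3397 libraries and 2021, 1936, 2074 and 1776 in male controls. Female libraries had 2202, 2627, 2269 and 2464 on PLX3397 and 2357, 2108, 2536 and 2845 on control chow. The changes with PLX3397, 0.19 in males and -0.04 in females, did not pass (adjusted p = 0.327 and 0.922). Rab20, Rab21 and Rab22a, which act on phagosomes, integrin-carrying endosomes and early endosomes, changed by 0.06, -0.21 and -0.29 in males and by 0.30, 0.08 and 0.15 in females, none of which passed.

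The largest log2 fold change among the 53 genes, in males and in females, was that of Rab7b, which belongs to late endosomes and, in macrophages, sends Toll-like receptors to lysosomes. It had 1025, 553, 587 and 627 in male PLX3397 libraries, against 61.2, 0, 0 and 37.0 in male controls. It had 818, 439, 679 and 394 in female PLX3397 libraries, against 25.6, 34.2, 34.7 and 142 in female controls. All 8 PLX3397 libraries lay far above all 8 controls, and 2 of the male controls were at 0.

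Means of Rab7b were 698 ± 219.9 in male PLX3397 and 24.6 ± 30.0 in male control, and 583 ± 201 in female PLX3397 and 59.0 ± 55.2 in female control (SD, n = 4 each). The male log2 fold change was 6.60 ± 1.08 (adjusted p = 0.000589), with a size that rests on the pseudocount of 1 because of the 2 libraries at 0: it was 7.11 with a pseudocount of 0.5 and 5.39 with a pseudocount of 5. In females it was 3.58 ± 1.08 and did not pass (adjusted p = 0.0673). The female value passed with a pseudocount of 5 (0.00729), with a higher filter on low values (0.0483), with the 2 female groups fitted alone (0.00394), and without any 1 of the male controls (0.0281 to 0.0472), which share the estimate of the spread. By the rough estimate from the steps, the male controls had the deeper libraries, at about 41886000 to 78364200 reads, against 29905000 to 38699800 for male PLX3397.

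Rab32, which serves lysosome-related organelles and limits intracellular bacteria in macrophages, had 3023, 2443, 2221 and 3986 in male PLX3397 libraries, against 4842, 4276, 5222 and 4448 in male controls. Female libraries held 3786, 3188, 4434 and 3714 on PLX3397, against 4311, 4059.6, 4979 and 3212 on control chow. Groups were apart in males and mixed in females. Rab32 fell by 0.72 ± 0.17 in males (adjusted p = 0.0103, and 0.0615 without the 2 set-aside libraries), and in females the value was -0.12 (adjusted p = 0.801).

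Rab29, a Rab of lysosomes and the trans-Golgi network that works with the kinase Lrrk2, had 981, 901, 966 and 1219.5 in male PLX3397 libraries, against 1320.2, 1222, 1251 and 1313 in male controls. Female libraries had 1350.4, 1329.9, 1259 and 1082 on PLX3397, against 978, 727, 1039 and 945 on control chow. The order was turned round between the sexes: all male PLX3397 libraries lay below all male controls, and all female PLX3397 libraries above all female controls. Neither change passed, at -0.34 ± 0.14 in males (adjusted p = 0.136) and 0.45 ± 0.14 in females (adjusted p = 0.0677). The female value did pass with equal library totals (0.0348), without male PLX3397 replicate 4 (0.0498) and without female PLX3397 replicate 4 (0.0455).

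The other tested genes of this compartment did not pass in either sex. Rab7 had 9409, 5829.8, 7780.1 and 8405 in male PLX3397 libraries and 9036, 9378, 9347 and 9869 in male controls, a change of -0.28 (adjusted p = 0.136), and its change in females was 0.09. Rab34, which acts on phagosome maturation, averaged 1927 ± 205 in male PLX3397 and 1361 ± 371 in male control (SD, n = 4 each), which left its change of 0.53 short of the threshold (adjusted p = 0.0589). Rab34 passed in males with a higher filter on low values (0.0439), upper-quartile scaling (0.0394), quantile normalisation (0.0365) and equal library totals (0.0256). Rab9, which returns receptors from late endosomes to the Golgi, changed by -0.03 in males and 0.28 in females. Over the 7 tested genes of the compartment, 1 was higher and 1 lower in males, beside 11.7% of all genes passing.

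Recycling endosomes held the lowest median of the 6 compartments in males, -0.44 over 7 tested genes, of which 3 were lower, beside the same 7.52% and 17.4% of all genes. Rab11a, the Rab of the slow recycling route, had 4287, 3409, 3440.4 and 3775 in male PLX3397 libraries, against 5912, 6652, 6436 and 4956 in male controls. Female values were 4426, 4509, 6691 and 4247 on PLX3397, against 6402, 4926, 6639 and 6554 on control chow. The male groups were apart, and in females 1 PLX3397 library stood above every control and 1 control below the other 3. Rab11a fell by 0.68 ± 0.15 in males (adjusted p = 0.00598), a call that held under all 26 alternatives, and the value in females was -0.32 (adjusted p = 0.289). Rab11b, which could share reads with the processed pseudogene Rab11b-ps2, changed by -0.37 in males and -0.08 in females and did not pass. That pseudogene averaged 220.0 in male PLX3397, 342 in male control, 274 in female PLX3397 and 360 in female control.

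Rab14 had 11818, 10816, 11448 and 11853 in male PLX3397 libraries, against 15154, 16323, 14728 and 16105 in male controls. Female libraries had 14867, 16525, 16398 and 13851 on PLX3397 and 16120.2, 11926, 18765 and 14163 on control chow. Male groups were far apart while the female controls alone spanned both female groups. Rab14 fell by 0.44 ± 0.11 in males (adjusted p = 0.0144), and in females the value was 0.03 (adjusted p = 0.933). The male call was lost with quantile normalisation (0.133), with equal library totals (0.0535) and without the 2 set-aside libraries (0.0776).

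Rab4b, of the fast recycling route, had 2639, 2787, 2929.6 and 3026 in male PLX3397 libraries, against 4052, 4431, 3691 and 3467 in male controls. In females it had 3304, 3449, 3209 and 3005 on PLX3397, against 3939.9, 3642, 4132 and 3886 on control chow. PLX3397 libraries lay below the controls of their sex without overlap. Rab4b fell by 0.45 ± 0.09 in males (adjusted p = 0.00423, and 0.0565 with equal library totals), and the value in females was -0.27 ± 0.09 (adjusted p = 0.134).

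Rab4a, its paralog, had 213, 165, 174 and 177 in male PLX3397 libraries and 133, 168, 212 and 149 in male controls. It had 283, 222, 152 and 286 in female PLX3397 libraries and 309, 216, 313 and 214 in female controls. Groups overlapped in both sexes, with changes of 0.15 and -0.18 that did not pass. Rab35, which recycles cargo and holds off actin, changed by -0.54 in males and -0.59 in females (adjusted p = 0.208 and 0.226). Rab15 was at 0 in all 8 controls, and had 0, 12.0, 83.4 and 148 in male PLX3397 libraries and 0, 0, 0 and 41.8 in female PLX3397 libraries; it did not pass (adjusted p = 0.0657 in males and 0.723 in females).

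In the ER, Golgi and autophagosome group, 1 of 14 tested genes was higher and 1 lower, in males and in females alike, and they were the same pair, beside 11.7% of all genes passing in males and 5.34% in females. Rab43, which acts between the ER and the Golgi and on maturing phagosomes, had 4919, 4882, 5130.2 and 5372 in male PLX3397 libraries, against 3282, 4043, 3452 and 3579 in male controls. Female libraries had 4751, 5076, 5182 and 5372 on PLX3397, against 3710.2, 3907, 3891 and 4471 on control chow. Every PLX3397 library lay above every control. Rab43 rose by 0.50 ± 0.09 in males (adjusted p = 0.00125) and by 0.35 ± 0.09 in females (adjusted p = 0.0276). The male call held under all 26 alternatives. The female call was lost without female PLX3397 replicates 2, 3 or 4, or without female control replicates 1, 2 or 3 (adjusted p = 0.0628 to 0.0897), with the 2 female groups fitted alone (0.0855) and without the 2 set-aside libraries (0.0516).

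Rab24 had 6385, 6528, 7560.4 and 7611 in male PLX3397 libraries, against 8948, 8864, 9284 and 8270.5 in male controls. Female libraries held 5623, 6482, 5354 and 6581 on PLX3397, against 8676, 7019.7, 8578 and 8981 on control chow. Again the groups did not overlap in either sex, with PLX3397 lower. Rab24 fell by 0.47 ± 0.10 in females (adjusted p = 0.00976) and by 0.34 ± 0.10 in males (adjusted p = 0.0395). With the 2 female groups fitted alone its adjusted p stood just above the threshold. The male call was lost without male PLX3397 replicates 1 or 2 or male control replicates 1, 2 or 3 (0.0846 to 0.105), with no filter on low values (0.0669), under each other scaling (0.0933 to 0.43) and without the 2 set-aside libraries (0.0542).

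Rab18, which works at the ER and lipid droplets, had 2863, 2064, 2470.4 and 2634 in male PLX3397 libraries and 2874, 3283, 3131 and 3510.1 in male controls. It had 3101, 3406, 4008 and 3415 in female PLX3397 libraries and 3847, 3178, 3872 and 4142 in female controls. The male groups were just apart (2863 against 2874) and the female groups overlapped. Changes of -0.36 and -0.11 did not pass (adjusted p = 0.0713 and 0.736).

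Rab6a, which runs traffic through the Golgi and back to the ER, had 2283, 2199.8, 2581 and 2321 in male PLX3397 libraries and 2641, 2351, 2154 and 2086 in male controls. Female libraries had 3220.5, 2878, 2820.2 and 3717 on PLX3397 and 3007, 2501, 2827 and 3028 on control chow. Its paralog Rab6b had 2451, 1789.7, 1807 and 1734 in male PLX3397 libraries and 2305, 3212, 2705 and 2720.0 in male controls. Changes with PLX3397 were 0.03 for Rab6a and -0.50 for Rab6b in males (adjusted p = 0.924 and 0.0596). Rab6b had 2544, 3958, 2559 and 2849 in female PLX3397 libraries and 2632, 2800.2, 2702 and 3579.5 in female controls. In females the changes were 0.15 and 0.01, and neither passed.

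The abundant ER to Golgi genes Rab1a, Rab1b, Rab2a and Rab2b changed by -0.38, -0.35, -0.30 and -0.19 in males and by -0.20, -0.12, -0.06 and 0.26 in females, none past the test. Rab33a, a scarce Golgi and autophagy Rab, had 14.0, 14.4, 15.3 and 25.0 in male PLX3397 libraries and 0, 10.7, 1.08 and 0 in male controls, groups that were apart without passing the test (adjusted p = 0.133). Rab19 and Rab30, both scarce, Rab33b, which acts in autophagy, and Rab39, which acts in phagosome acidification, changed by -2.14, -2.11, -0.46 and -0.40 in males and by -0.92, 2.39, -0.12 and -0.28 in females, and none passed.

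Of 13 tested genes of secretion and exocytosis, 1 was higher and 1 lower in males, beside the same 11.7%, and none passed in females. Rab8b, which moves vesicles from the Golgi to the cell surface, had 4904, 4481, 5502 and 5273 in male PLX3397 libraries, against 8210.4, 7917, 6603 and 7037 in male controls. Female values were 7015, 7829, 7532 and 9857 on PLX3397, against 8124, 8307, 6587 and 8364 on control chow. Male groups were far apart, with PLX3397 lower, and the female groups covered much the same range. Rab8b fell by 0.56 ± 0.12 in males (adjusted p = 0.0044), which held under all 26 alternatives, and the value in females was 0.03 (adjusted p = 0.935).

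Rab3d, which sits on secretory granules, had 309, 467, 618 and 769 in male PLX3397 libraries, against 369.5, 175, 111 and 172 in male controls. Female libraries had 376, 410.4, 474 and 654 on PLX3397, against 360.5, 259, 172 and 145 on control chow. In males 1 PLX3397 library lay below the highest male control, and the female groups did not overlap. Rab3d rose by 1.44 ± 0.37 in males (adjusted p = 0.0168), and the value in females was 1.09 ± 0.37 (adjusted p = 0.114). The male call was lost without male PLX3397 replicate 3 (0.0511) or replicate 4 (0.0502), without male control replicate 3 (0.06) and without the 2 set-aside libraries (0.1). Neutrophils carry granules too, and the summed neutrophil markers of male PLX3397 replicates 1 to 4 were 10144, 11472, 71359 and 17377; their part in the Rab3d value was not tested.

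Rab10, which delivers transporters and Toll-like receptor 4 to the cell surface, had 5659, 4373, 5001 and 5749 in male PLX3397 libraries and 6952, 6592, 5756 and 7623 in male controls. Female libraries had 7116, 7366, 6712 and 8388 on PLX3397 and 6739.5, 6458, 8687 and 6924 on control chow. Male groups were just apart, female groups overlapped, and the changes of -0.37 and 0.04 did not pass (adjusted p = 0.0564 and 0.917). Rab26, a scarce Rab of secretory granules, had 5.75, 39.7, 22.4 and 94.4 in male PLX3397 libraries and 24.6, 16.9, 13.1 and 47.4 in male controls. In females it had 0, 11.3, 0 and 27.0 on PLX3397 and 0, 8.39, 0 and 1.05 on control chow, and it did not pass for PLX3397 in either sex.

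Rab3a, Rab8a, Rab12, Rab13, Rab27a, Rab27b and Rab37, all known from regulated secretion or transport to the cell surface, ran from -0.44 (Rab3a) to 1.64 (Rab37) in males and none passed; Rab3b and Rab3c, at 2.06 and -0.33, were scarce and did not pass. Rab36, a late endosomal gene, also scarce, changed by 0.64 in males and -0.29 in females. Of the 5 tested genes of cilia or less studied membranes none passed. Rab23, a brake on Hedgehog signalling at the cilium, changed by 0.30 in males and 0.95 in females (adjusted p = 0.717 and 0.23), and Rab40b, Rab40c and Rab42 ran from -0.37 to 0.43 in males. Rab28, known from photoreceptor cilia, had 793, 726, 671 and 699 in male PLX3397 libraries and 961, 944, 794 and 1010.4 in male controls. It had 722, 1152, 1153 and 939.7 in female PLX3397 libraries and 1300.0, 966, 1342 and 1442 in female controls, and its change of -0.36 in each sex missed the threshold (adjusted p = 0.202 in males and 0.282 in females).

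**Figure D3:**
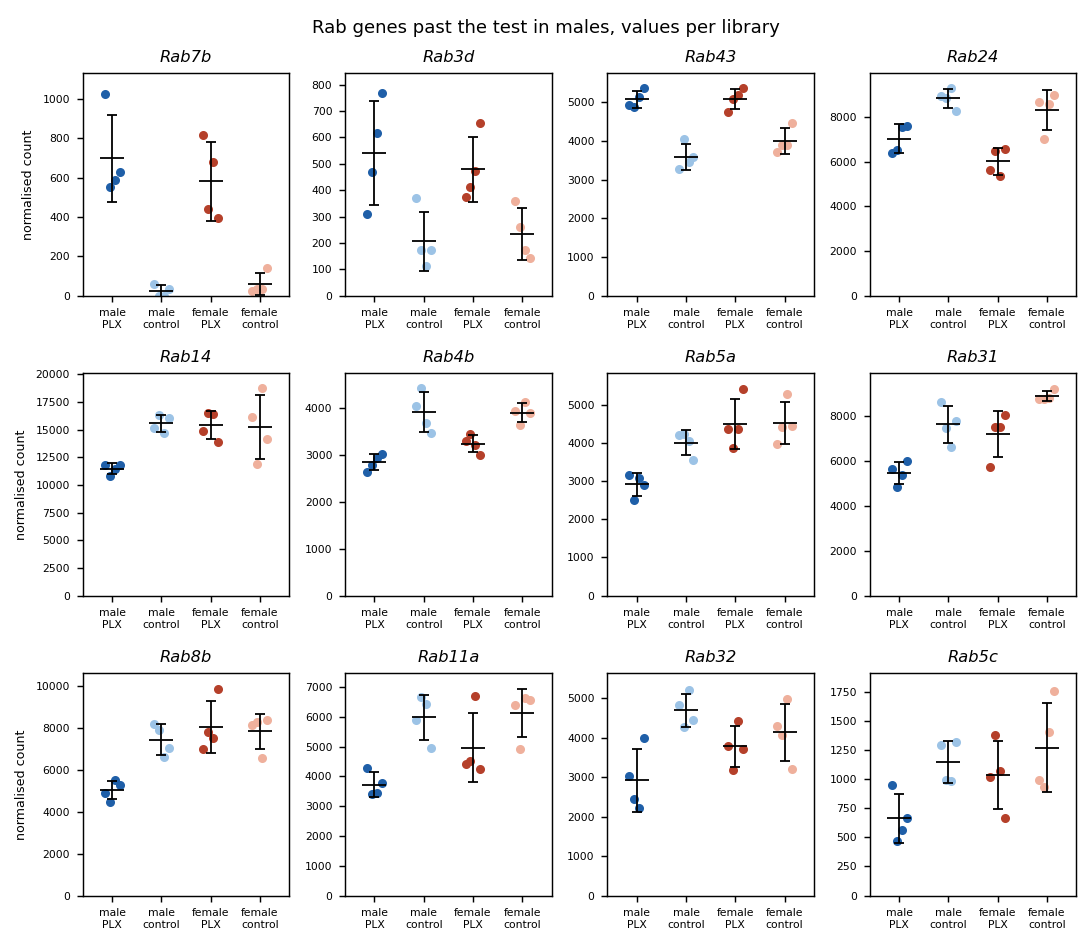
Normalised counts of the 12 Rab genes that passed in males, in each library of the 4 groups (PLX marks PLX3397 chow). Points are libraries, and bars are the mean ± SD of 4. In males the 2 groups are apart for every gene but Rab3d, while the female groups are apart for Rab7b, Rab43, Rab24, Rab31, Rab3d and Rab4b.

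On PLX3397, 8 of the 53 tested Rab genes differed between females and males, all of them higher in females (15.1%, beside 5.43% of all genes, and 4.28% of all genes higher). They were Rab8b, Rab5a, Rab10, Rab18, Rab14, Rab6b, Rab6a and Rab31, and all have a mean of at least 1000, a class in which 8 of 32 Rab genes (25%) passed, beside 12.4% of all such genes, 11.4% being higher. The groups did not overlap for 12 Rab genes (22.6%), beside 12.1% of all genes. The median log2 difference of the 53 was 0.31, beside -0.02 for all genes, and it stayed above 0, at 0.11, with equal library totals, which moved the median of all genes down by 0.20. Among genes with a mean of at least 1000 the median was 0.38 for the 32 Rab genes, beside 0.19 for all such genes.

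Rab8b averaged 8058 ± 1246 in female PLX3397 and 5040.0 ± 447 in male PLX3397 (SD, n = 4 each), with a difference of 0.67 ± 0.12 (adjusted p = 0.00695). Rab5a averaged 4499 ± 647 in female PLX3397 and 2913 ± 292 in male PLX3397 (SD, n = 4 each), a difference of 0.62 ± 0.12 (adjusted p = 0.00994). Neither pair of groups overlapped, and both calls were lost under the same 2 alternatives, the 2 PLX3397 groups fitted alone (0.0644 and 0.0734) and equal library totals (0.0511 and 0.0517).

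The other 6 calls were weaker. Their differences were 0.51 for Rab10 (adjusted p = 0.0245), 0.48 for Rab18 (0.0346), 0.42 for Rab14 (0.0379), 0.60 for Rab6b (0.0419), 0.42 for Rab6a (0.0435) and 0.39 for Rab31 (0.0484). Only for Rab31 did the groups overlap. Leaving out 1 library ended the call in 4 cases of 16 for Rab10, 5 for Rab18, 6 for Rab14, 9 for Rab6b, 14 for Rab6a and 13 for Rab31, with adjusted p of at most 0.152. Leaving out male PLX3397 replicate 2, male PLX3397 replicate 3 or female PLX3397 replicate 2 left 2 calls each, female PLX3397 replicates 3 or 4 left 3 each, and male control replicates 2 or 4 or female control replicate 1 left 5 each. Under upper-quartile scaling or quantile normalisation 3 genes passed, Rab5a and Rab8b higher in females and Rab24 lower. With equal library totals Rab24 alone passed, with a difference of -0.43 (adjusted p = 0.0292), and none passed with the 2 PLX3397 groups fitted alone. Rab5a, Rab8b and Rab10 passed with no filter on low values, and Rab5a and Rab8b without the 2 set-aside libraries. In the values as deposited the difference of Rab24 was -0.23 (adjusted p = 0.203).

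**Figure D4:**
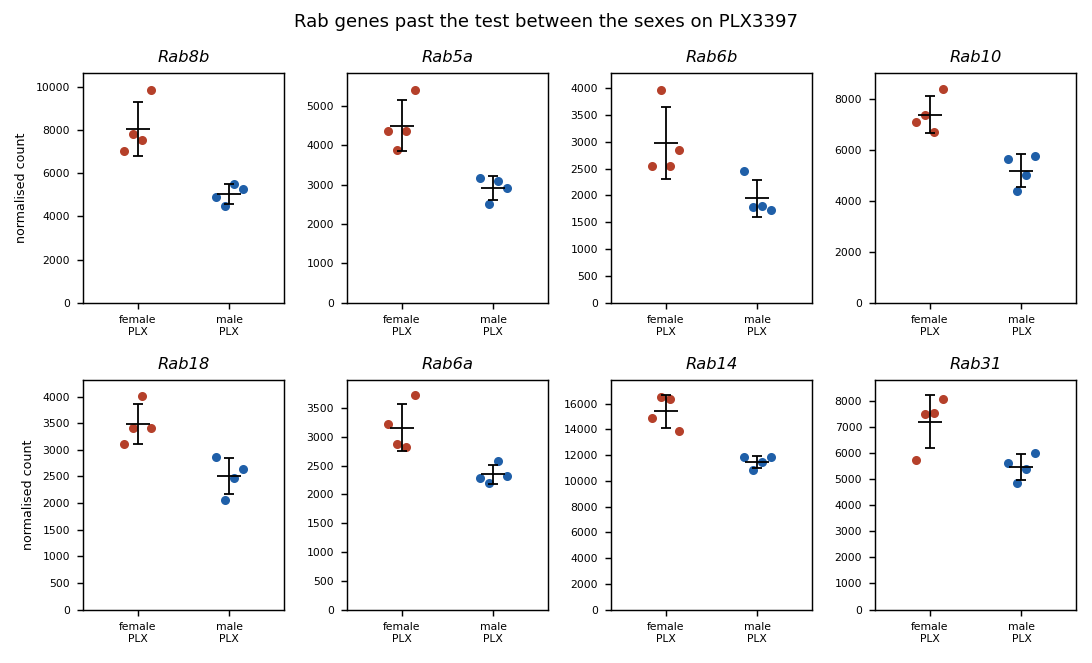
Normalised counts of the 8 Rab genes that passed between the sexes on PLX3397, in each library of the female and male PLX3397 groups (PLX marks PLX3397 chow). Points are libraries, and bars are the mean ± SD of 4. The female points lie above the male points in each panel, with 1 overlap at Rab31.

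Whether the sexes respond differently was tested by the difference between the 2 responses (female minus male). None of the 53 Rab genes passed, and none of all genes did (0%). At an unadjusted p under 0.05 there were 10 Rab genes of 53, and 2010 of 19594 genes in all. The difference was positive, with the female log2 fold change above the male one, for 9 of these Rab genes and 1264 of these genes in all. The smallest p values belonged to Rab29, at 0.79 ± 0.19 (adjusted p = 0.208), Rab8b at 0.59 ± 0.17 (0.24), Rab14 at 0.47 (0.308), Rab5a at 0.45 (0.374), Rab32 at 0.60 (0.403) and Rab10 at 0.42 (0.408). For Rab8b, Rab14 and Rab5a, the call in males and the lack of one in females therefore do not show that the responses differ. The median difference was 0.24, beside 0.01 for all genes. Among genes with a mean of at least 1000 it was 0.24 for the 32 Rab genes, beside 0.14 for all such genes.

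Between the sexes on control chow none of the 53 passed, beside 0.0663% of all genes, with 8 Rab genes and 1017 genes in all at an unadjusted p under 0.05. The groups did not overlap for 6 Rab genes (11.3%), beside 3.55% of all genes. The median log2 difference of the 53 was 0.10, with 38 above 0 and 14 below, beside -0.01 for all genes. Among genes with a mean of at least 1000 it was 0.10 for the 32 Rab genes, beside 0.04 for all such genes. Rab29 was the first by p, at 922 ± 136 in female controls and 1277 ± 47.7 in male controls (SD, n = 4 each), a difference of -0.48 ± 0.14 (adjusted p = 0.769). Rab26 followed at -3.50 (adjusted p = 0.833), with 2 of 4 female controls at 0, then Rab5b at 0.33 (0.876), Rab4a at 0.66 (0.921), Rab6a at 0.30 and Rab28 at 0.43 (0.926 each). Rab29 thus had its highest control values in males, the sex in which its PLX3397 libraries were lower.

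Ratios of paralogs within a library do not depend on a scaling by 1 factor per library, so they were compared for 10 pairs in which both genes had at least 100 in every library. With 4 comparisons a pair this gave 40 two-sided exact permutation tests; 4 libraries against 4 cannot go below p = 0.0286, and after adjustment the smallest p was 0.143, so no ratio passed. Groups that did not overlap are given here as values. The log2 ratio of Rab5a to Rab5b averaged 0.38 ± 0.11 in male PLX3397 and 1.04 ± 0.07 in male control, and 0.90 ± 0.24 in female PLX3397 and 0.88 ± 0.22 in female control (SD, n = 4 each). The ratio of Rab8a to Rab8b averaged -0.19 ± 0.12 in male PLX3397 and -0.88 ± 0.11 in male control, and -0.67 ± 0.21 in female PLX3397 and -0.77 ± 0.26 in female control. In both pairs the male PLX3397 libraries overlapped neither male controls nor female PLX3397 libraries.

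Rab5b to Rab5c averaged 1.79 ± 0.35 in male PLX3397 and 0.78 ± 0.29 in male control, and Rab4a to Rab4b -3.96 ± 0.22 in male PLX3397 and -4.57 ± 0.34 in male control (SD, n = 4 each). Both pairs overlapped between female groups. Rab3a to Rab3d was apart in both sexes, at -0.52 ± 0.48 in male PLX3397 and 1.36 ± 0.68 in male control, and -0.07 ± 0.25 in female PLX3397 and 1.45 ± 0.69 in female control. The male groups were thus apart in 5 of the 10 pairs and the female groups in 1. No share was computed for ratios of genes outside the family. Each of the 5 pairs holds a gene that passed in males (Rab3d, Rab4b, Rab5a, Rab5c or Rab8b), and Rab5b is shared by the pairs with Rab5a and Rab5c. The count is therefore not separate from those calls. Rab1a to Rab1b, Rab2a to Rab2b, Rab5a to Rab5c, Rab6a to Rab6b and Rab11a to Rab11b overlapped between groups in all 4 comparisons.

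**Figure D5:**
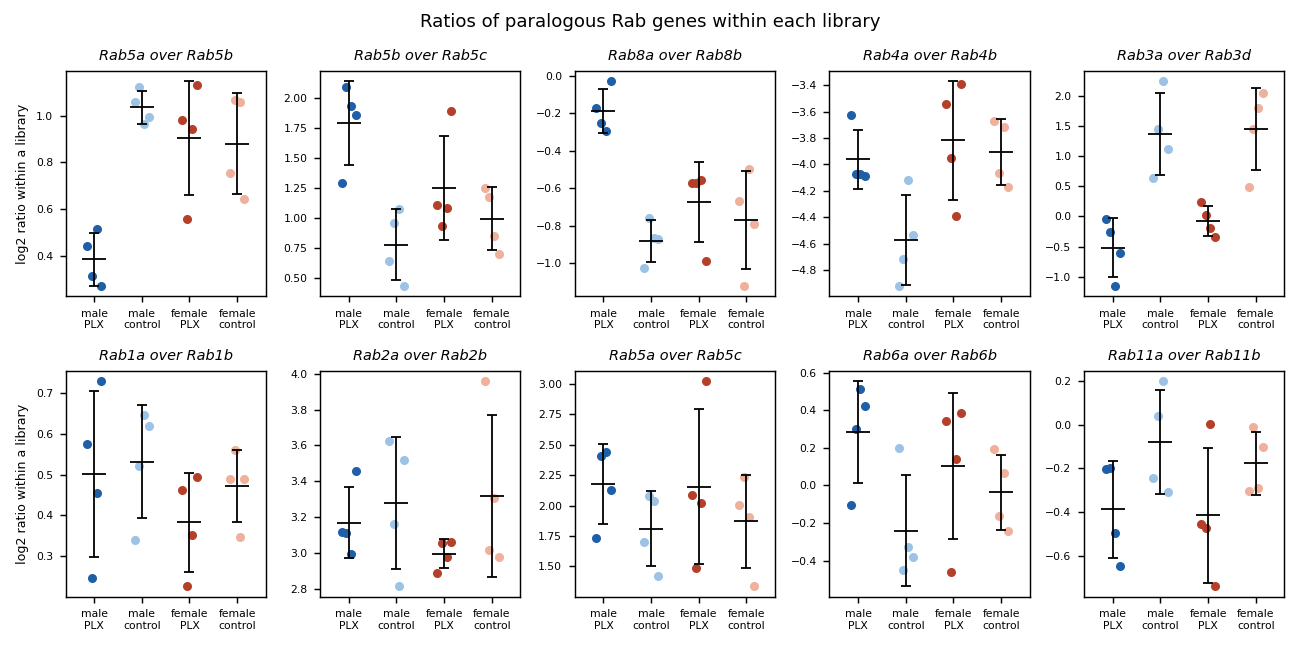
Log2 ratio of 2 paralogous Rab genes within each library, for 10 pairs in the 4 groups (PLX marks PLX3397 chow). Points are libraries, and bars are the mean ± SD of 4. In the upper row the male PLX3397 libraries are apart from the male controls for each pair, and the lower row holds the 5 pairs whose groups overlap.

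The proteins that switch Rabs on and off were counted from lists of known regulators. Of 57 tested GEFs, 4 were higher and 9 lower on PLX3397 in males (median log2 fold change -0.08, beside 0.02 for all genes), and 0 higher and 4 lower in females (median -0.08). Beside these counts and those of the lists that follow stand 4.16% of all genes higher and 7.52% lower in males, and 2.67% in each direction in females. Among all genes with a mean of at least 1000 the shares were 5.74% higher and 17.4% lower in males, and 4.85% and 5.3% in females. The lists were not split by abundance. Without male PLX3397 replicate 1, 8 GEFs passed in males in place of 13. Rab3il1, a GEF of the Rab3 and Rab8 families, had 20268, 20338, 17962 and 27205 in male PLX3397 libraries, against 44529, 42620.2, 44114 and 41530.4 in male controls. Female libraries held 27702, 27821, 31552 and 28351 on PLX3397, against 44974, 37998, 45524 and 42019 on control chow. The groups were far apart in both sexes. Rab3il1 fell by 1.03 ± 0.10 in males (adjusted p = 5.35e-06) and by 0.56 ± 0.10 in females (adjusted p = 0.00273).

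Rin2 and Rinl, GEFs of the Rab5 family, fell too. Rin2 had 9073, 7918, 7636 and 9253 in male PLX3397 libraries, against 20412, 19845, 16684 and 18752 in male controls, a fall of 1.16 ± 0.12 (adjusted p = 7.57e-06). In females Rin2 had 11759.7, 9583, 11226 and 8411 on PLX3397, against 21325, 19801, 16094 and 16733 on control chow, a fall of 0.85 ± 0.12 (adjusted p = 0.000308). Groups did not overlap in either sex. Rinl fell by 1.22 in males (adjusted p = 7.87e-05) and by 0.68 in females (0.0172, lost without female PLX3397 replicate 2 and female control replicates 1 or 3, at 0.0556 to 0.0635).

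Trappc13, a subunit of the TRAPP complexes that activate Rab1, had 1068, 1000.5, 1193 and 1094 in male PLX3397 libraries, against 1744, 1876, 1917 and 1688 in male controls. Female values were 1844, 2031, 1926 and 1951 on PLX3397, against 1931, 1869.9, 2008 and 1906 on control chow. Only the male PLX3397 libraries stood apart from the other 3 groups. It fell by 0.73 in males (adjusted p = 7.6e-05) and was higher in females than in males on PLX3397 by 0.83 (adjusted p = 0.000309). Dennd2c, a GEF of the DENN family, fell by 1.00 in females (adjusted p = 0.0152, lost without female PLX3397 replicate 1 at 0.0563 or female control replicate 4 at 0.0551). The fall was not confined to females: male libraries of Dennd2c had 654, 607, 604 and 707 on PLX3397, against 1508, 1823, 2140 and 2987 on control chow.

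Of 41 tested GAPs, 3 were higher and none lower in males (median 0.12), and 2 were higher and none lower in females (median -0.04), beside 11.7% of all genes passing in males and 5.34% in females. The male count was 5 without female PLX3397 replicate 1 or with equal library totals, and the female count was 0 without female PLX3397 replicates 1 or 2 or female control replicate 1, and 1 without female PLX3397 replicate 4. Tbc1d10a, a GAP of Rab27a and Rab35, had 8727, 6872, 9312 and 9705 in male PLX3397 libraries, against 5252, 4920.5, 5204 and 3646 in male controls. In females it had 8852, 8020.1, 6179.6 and 8699.6 on PLX3397, against 4813, 4103, 6168 and 5265 on control chow. No PLX3397 library lay below a control of its own sex. It rose by 0.87 ± 0.16 in males (adjusted p = 0.00153) and by 0.64 ± 0.16 in females (adjusted p = 0.0229, and 0.06 to 0.0765 without any 1 of 5 female libraries, PLX3397 replicates 1, 2 or 4 and control replicates 1 or 2).

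Tbc1d8, a protein with a Rab GAP domain, rose by 0.88 in males (adjusted p = 0.000787) and by 0.55 in females (0.0367, and 0.0919 to 0.122 without female PLX3397 replicates 1 or 2 or female control replicates 1 or 2). The female call was also lost with no filter on low values (0.0612), with the 2 female groups fitted alone (0.0744) and without the 2 set-aside libraries (0.0626). Rabgap1l rose by 0.91 in males (0.027, groups overlapping), which was lost without any 1 of 5 male libraries, PLX3397 replicates 1, 3 or 4 and control replicates 1 or 2 (0.0541 to 0.0941), with the 2 male groups fitted alone (0.0722) and without the 2 set-aside libraries (0.103).

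Of 48 tested effectors and tethers, 6 were higher and 5 lower in males (median 0.07), and 2 higher and 4 lower in females (median -0.03), beside the same 11.7% and 5.34% of all genes. The female count was 2 without female PLX3397 replicate 1 and 3 without female control replicate 1. Rbsn, the rabenosyn that binds active Rab4 and Rab5, had 1206, 1308, 1180.2 and 1101 in male PLX3397 libraries, against 2516, 2268, 1914 and 1999.7 in male controls, and fell by 0.85 ± 0.15 (adjusted p = 0.00141). Appl2, a Rab5 effector on signalling endosomes, rose by 0.56 in males (adjusted p = 0.00209). Myo5a, the myosin that carries Rab27a vesicles, had 1175, 2081, 1159 and 1402 in male PLX3397 libraries, against 335, 394, 242 and 42.3 in male controls, and rose by 2.87 ± 0.53 (adjusted p = 0.00176). Its female libraries were apart too, with 1368, 1182, 835 and 929 on PLX3397, against 248, 479, 189 and 152 on control chow. The female groups of Rbsn and Appl2 overlapped.

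Mical1, an actin-oxidising enzyme that binds Rab8 family members, had 4334, 3159, 3926 and 2623 in male PLX3397 libraries, against 1489.8, 1706, 1997 and 1348 in male controls. Female libraries held 4937, 4292, 3017 and 2509.9 on PLX3397, against 1772, 1910.3, 1525 and 1761 on control chow. Libraries on PLX3397 lay above the controls in both sexes. It rose by 1.09 in males (adjusted p = 0.00183) and by 1.03 in females (adjusted p = 0.00525). In females Tgfbrap1, a subunit of the CORVET tether of early endosomes, fell by 0.80 (adjusted p = 9.6e-05), Bicd2, the dynein adaptor that binds Rab6, by 0.44 (0.0131), and Mical3 by 1.18 (0.0159). Male PLX3397 libraries also lay below male controls for Tgfbrap1 (1709 to 1907 against 2424 to 2578) and Bicd2 (4872 to 5469 against 6953 to 7718). For Mical3 the male groups overlapped (298 to 588 against 377 to 859).

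The female calls of Bicd2 and Mical3 were lost in some alternatives. Bicd2 was lost without female PLX3397 replicate 1 or female control replicate 1 (0.052 and 0.0522) and with the 2 female groups fitted alone (0.0775). Mical3 was lost without female PLX3397 replicate 1 or female control replicate 2 (0.0509 and 0.053). Of 7 tested genes of Rab prenylation and membrane cycling 1 passed in males and none in females. It was Gdi2, a GDP dissociation inhibitor, which fell by 0.47 ± 0.13 (adjusted p = 0.0277), and was lost without male PLX3397 replicate 2 or male control replicates 1, 2 or 3 (0.0606 to 0.0918), with no filter on low values (0.0552), with quantile normalisation (0.126), with equal library totals (0.0646) and without the 2 set-aside libraries (0.0688). None of the 4 tested kinases and phosphatases of Rabs and none of the 6 tested Rab-like genes passed in either sex. Between females and males on PLX3397, 4 of 57 GEFs were higher and 1 lower, 2 of 48 effectors were higher and 1 lower, and no gene of the other lists passed, beside 5.43% of all genes passing and 4.28% higher. Beside Trappc13, the GEFs named were Sh3bp5, a GEF of Rab11, higher in females by 0.89 (adjusted p = 0.0141), Rab3il1 by 0.44 (0.0212) and the TRAPP subunit Trappc2 by 0.69 (0.0308). The effectors were Rbsn and Acap2, higher by 0.60 and 0.41 (0.0364 and 0.0379), and Fyco1, a Rab7 effector, with a difference of -0.48 (0.017). Rab3il1, Trappc2, Rbsn and Acap2 were lost under upper-quartile scaling, quantile normalisation and equal library totals (0.0728 to 0.333), and Sh3bp5 with equal library totals (0.0524). Rbsn and Acap2 were also lost with no filter on low values (0.054 and 0.0589), and Rab3il1, Trappc2, Fyco1 and Rbsn without the 2 set-aside libraries (0.0613 to 0.0998). With the 2 PLX3397 groups fitted alone Sh3bp5, Rab3il1, Trappc2, Rbsn, Acap2 and Fyco1 were all lost (0.074 to 0.124). Without male PLX3397 replicates 2 or 3 or female PLX3397 replicate 3, 2 GEFs passed, and 1 effector passed without any 1 of the male PLX3397 libraries or of female PLX3397 replicates 2 to 4.

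The remaining 6 Rab genes did not reach the filter and were not tested. Rab17, known from epithelial cells, was at 0 in all 16 libraries, and Rab25, another epithelial Rab, and Rab9b stayed at or below 19.1 and 11.7. Rab38, the pigment cell relative of Rab32, reached 18.2 in male PLX3397 replicate 4, and Rab39b, a neuronal Rab, 83.1 in male control replicate 3. Rab44, a large Rab known from mast cells and granulocyte precursors, had 0, 20.1, 57.8 and 63.1 in male PLX3397 libraries and 0 in all 8 controls, with 2.54 in female PLX3397 replicate 3 and 0 in the other 3. With no filter on low values Rab44 passed as higher on PLX3397 in males (limma adjusted p = 0.017), with no fold given because the controls are listed at 0. The male PLX3397 group also held the 4 largest neutrophil marker sums, and the part of neutrophils in Rab44 was not tested.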

How the data were processed

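The authors deposited one table of 53850 Ensembl genes by 16 libraries, per the file headers normalised counts (a signal, not raw counts). The formula is not given in the sources used here. The step between low values differed by library and by gene, and some values lay well below the step of their library. Rab30, for example, had 0.429 in female control replicate 1, where the step was 1.48. Whole reads could therefore not be recovered, and no count model was used. Per the labels' protocols, microglia were sorted and 500 pg of total RNA entered SMARTer Ultra Low Input amplification, with 150 pg of cDNA into Nextera XT libraries; amplified reads without molecular identifiers are not independent molecules. Tools listed without role or order, per the submitters' processing notes, are Salmon 1.5.2, featureCounts 2.0.1 and Subread, STAR 2.7.9a and bcl2fastq 2.19.1; the build named there is GRCm39. Strandedness is not stated.

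Symbols, biotypes and exon lengths came from GENCODE vM21 by Ensembl identifier (51029 genes matched, and 19407 of those tested). Values were tested as log2(value + 1) with limma 3.58.1 (R 4.3.3, trended eBayes), over 19594 genes with at least 10 in at least 4 libraries, as 4 group means over all 16 libraries, two-sided, with Benjamini-Hochberg adjustment over all genes and a threshold of 0.05. A fold change on this scale is a difference of mean logs, which for scarce genes can lie above or below the log2 ratio of the group means. The 5 comparisons were PLX3397 against control within each sex, the difference of those responses, and the sexes within each chow; comparisons that share a group are not independent. The steps were tested on simulated data. Members and lists were chosen with earlier results of these data known. Named were Rab genes past the threshold in any comparison or among the 6 smallest p of any comparison. Up to 4 regulators per list and PLX3397 comparison were named as well. Others named beside them were chosen after their values were seen. The 26 alternatives covered pseudocounts, filters, scalings, designs and leaving out each library; equal library totals and leaving out 2 male libraries together were added after seeing the data. Promoter windows are RefSeq's (GRCm38.p6) and are used for sequence only. Python 3.11.15 and matplotlib 3.10.9 drew the plots.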

Additional observations from a re-analysis of the deposited data

Results flagged for a closer look

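Of 210 groups of 4 libraries looked at over the 53 tested Rab genes, 20 held a library that stood apart from the other 3 by Dixon's criterion (9.52%, where chance flags about 1 in 20). Among abundant genes, Rab11a had 6691 in female PLX3397 replicate 3 (the others 4247 to 4509) and 4926 in female control replicate 2 (the others 6402 to 6639). Rab1b had 5391 in female control replicate 2 (the others 7005 to 7269). Rab21 had 1644 in male control replicate 2 (the others 1052 to 1074). Rab6b had 2451 in male PLX3397 replicate 1, Rab31 had 9231 in female control replicate 4, and Rab8b had 6587 in female control replicate 3. Rab7b had 1025 in male PLX3397 replicate 1 and 142 in female control replicate 4, and neither reached the other group of its sex.

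The remaining flags fell on scarce genes. Rab15 had 41.8 in female PLX3397 replicate 4. Rab26 had 8.39 in female control replicate 2. Rab30 had 19.7 in male PLX3397 replicate 4. Rab33a had 25.0 in male PLX3397 replicate 4, 10.7 in male control replicate 2 and 28.6 in female PLX3397 replicate 4. Rab3b had 52.6 in female PLX3397 replicate 2, 0.909 in male control replicate 2 and 14.8 in female control replicate 2. Rab40b had 23.4 in male PLX3397 replicate 4 and 129 in female control replicate 4.

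The values of Rab29 lay in opposite directions in the sexes, though neither change passed on its own: every female PLX3397 library lay above every female control, and every male PLX3397 library below every male control. The responses differed by 0.79 (log2, female minus male), and the test of that difference did not pass (limma adjusted p = 0.208, and 0.106 to 0.379 over the alternatives).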

How the results depend on the processing

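The log2 fold changes recomputed were those of the Rab genes and regulators named by the rule, each in the comparisons it was named for, and none of them turned its direction; values given for other genes or comparisons were not checked this way. In males 12 Rab genes passed, and 6 passed (2 higher, 4 lower) with replicate 3 of male PLX3397 and replicate 4 of male control left out together, and 9 to 15 when 1 library was left out. In females 2 passed, and 1 passed with the 2 groups fitted alone (Rab7b, with Rab24 and Rab43 both lost), 1 without those 2 male libraries (Rab24), and 1 to 3 with 1 library left out; the call lost then was that of Rab43 each time the count was 1. Between the sexes on PLX3397 8 passed, and 3 of the 8 passed with no filter on low values. Quantile normalisation gave 3 calls and upper-quartile scaling 3 (Rab5a and Rab8b of the 8, and Rab24, lower in females). There were 0 with the 2 groups fitted alone, 4 with the replicate block, 1 with equal library totals (Rab24, so that none of the 8 passed), 2 without the 2 male libraries, and 2 to 9 with 1 library left out. The difference of the responses and the control sexes stayed at 0 passing Rab genes throughout, 0 also when 1 library was left out. The cause of these changes was not tested.

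Scaling moved all genes: equal totals shifted the median of all genes by 0.16 in males and by -0.20 between the sexes on PLX3397. All-gene calls were 815 higher and 1474 lower in males, but 1348 and 917 with equal totals. Between the sexes on PLX3397 838 were higher and 226 lower, but 195 and 375 with equal totals, 265 and 341 with upper-quartile scaling, and 246 and 221 with quantile normalisation; 44 in all passed with the 2 groups fitted alone. Male Rab calls that held in all 26 alternatives were those of Rab7b, Rab8b, Rab11a and Rab43.

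Same-numbered samples of different groups correlated from -0.0446 to 0.115 over 24 pairs, 1 of them over 0.1. That gives no sign that the numbers pair the samples but cannot exclude it, since a shared effect may be small or touch few genes. With the replicate block 4 Rab genes were higher and 7 lower in males, 2 passed in females and 4 between the sexes on PLX3397. The block ended the male calls of Rab5c (adjusted p = 0.0743) and Rab24 (0.0573) and the female call of Tbc1d8 (0.0695), and Rab34 passed with it in males (0.0435). Genes below about 10 in most libraries could not be tested at this depth.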
